A study of Mus musculus with 8 samples.

Results

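Nuclear genes of respiratory complexes II to V were examined in the hearts of tumor-bearing mice. The members were all protein-coding genes of the count table whose symbol starts with Sdha, Sdhb, Sdhc, Sdhd, Sdhaf, Uqcr, Uqcc, Atp5 or Cox and a digit, together with Cyc1, and they came to 62 of the 43346 genes listed. They comprised 6 genes of complex II, 12 of complex III, 27 of complex IV and 17 of complex V, or 45 subunit genes and 17 genes of assembly and other factors. RNA was sequenced from the cardiac ventricles of 8 male C57BL/6 mice, each library coming from a separate animal. At 7 weeks of age, 4 mice received 1000000 LLC1 cells under the skin of the flank and 4 received PBS vehicle, and the hearts were taken 14 days later. LLC1 is a Lewis lung carcinoma cell line that grows in mice of this strain, so all tumors came from the same line. The comparison of LLC1 with PBS asks whether the messages for the respiratory chain differed in the hearts of mice that carried a tumor.

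The respiratory chain sits in the inner mitochondrial membrane. Complex II (succinate dehydrogenase) takes electrons from succinate and passes them to ubiquinone, complex III passes them from ubiquinol to cytochrome c, and complex IV (cytochrome c oxidase) passes them to oxygen, while complex V (ATP synthase) uses the proton gradient built by complexes III and IV, and by complex I, to make ATP. Heart muscle works almost without pause, is rich in mitochondria, and makes some complex IV subunits from heart and skeletal muscle isoform genes that other tissues use little.

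Counts on genes came to 15342214 to 19747596 in the LLC1 mice and 12480706 to 16192158 in the PBS mice. Levels are given as counts per 1000000 counts after TMM scaling (CPM), and values of single mice are listed in the order LLC1 1-2, 1-3, 1-5 and 2-2, then PBS 1-1, 1-3, 2-1 and 2-5. The library PBS 1-1 stood apart from the other PBS libraries: the 10 most abundant genes held 20.4% of its counts, against 13.9% to 15.3% in the other 7 libraries, and its chi-square per gene against the other PBS mice was 59.2 to 86.9, against 4.50 to 15.7 for all other pairs within a group. Where a member's call turned on it, the value without it is given. The 37 genes of mitochondrial DNA were listed with 0 counts in every mouse, so cytochrome b, the 3 core subunits of complex IV and the 2 mitochondrially encoded subunits of complex V were not analysed here. As a check of the tissue, the 7 cardiomyocyte markers summed to 83632 to 86414 CPM in PBS mice, and the 4 atrial markers to 123 to 249 CPM in PBS and 113 to 339 CPM in LLC1 mice, LLC1 2-2 being the highest. Over all mice, the 6 markers of fast skeletal muscle summed to 0.930 to 2.14 CPM, with Myh4 at 0, and the 4 of lung epithelium to 0 to 0.412 CPM, with Sftpc and Sftpa1 at 0. The 6 markers of brown and white fat summed to 490 to 547 CPM in LLC1 and 500.2 to 730.4 CPM in PBS mice, nearly all of it from Fabp4 (458 to 705 CPM) and Cidea (24.96 to 33.67 CPM), with the brown fat gene Ucp1 at 0.

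Across complexes II to V, members were more often higher than lower in LLC1 mice, by small amounts. Of the 62 members, 60 had enough counts to be tested, and 12 of these were higher in LLC1 mice at an FDR under 0.05 by edgeR's quasi-likelihood test, with Benjamini-Hochberg adjustment over the 16111 genes tested. No member was lower by this test. Among all genes tested, 4.12% were called higher, 4.61% lower and 8.73% in either direction. At an unadjusted p under 0.05 by the same test, 22 members were higher and 1 was lower, where 2002 and 2101 of the 16111 genes tested were. By DESeq2 16 members were called higher and 0 lower, where 910 and 847 of all genes tested were. The log2 fold change was above 0 for 49 of the 60 members and below 0 for 11, with a median of 0.13 against -0.01 for all genes tested. By complex, the median was 0.09 for complex II, 0.17 for III, 0.12 for IV and 0.16 for V. The values of all 4 LLC1 mice lay above those of all 4 PBS mice for 18 members and below them for none, where 8.89% of all genes tested were without overlap in the higher direction and 8.27% in the lower. Subunit genes held 11 of the 12 calls (11 of 43 tested, median log2 fold change 0.17), and factor genes held 1 (1 of 17 tested, median 0.02). Members were abundant genes. Among the 2371 genes at or above the lower quartile of the members' PBS level, 11.6% were called higher and 22.2% were higher without overlap. In this set 63.5% had a log2 fold change above 0, with a median of 0.06. For the 60 members the same shares were 20%, 30% and 81.7%. At an unadjusted p under 0.05 by the edgeR test, 662 of the 2371 genes were higher and 233 lower.

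**Figure D1:**
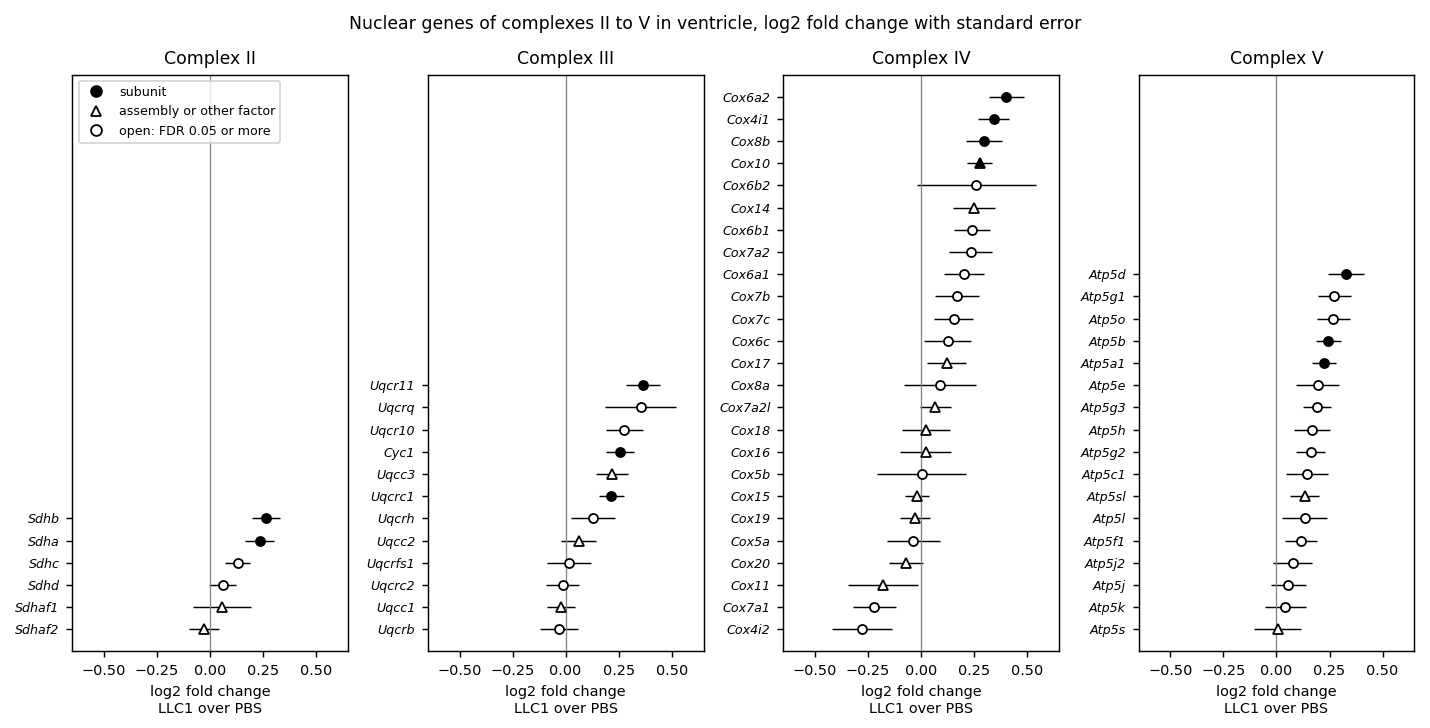
Log2 fold change of LLC1 over PBS (horizontal axis) with its standard error for each of the 60 tested members, by complex; circles are subunits, triangles are assembly or other factors, and filled symbols have an FDR under 0.05. The 17 members of complex V lie above 0, Atp5s only just (0.01), and the range over all complexes runs from -0.28 for Cox4i2 to 0.40 for Cox6a2.

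The share of all counts that fell on the members was 3.87% to 4.24% in LLC1 mice and 3.60% to 3.70% in PBS mice, without overlap. Scaled by TMM, single mice differed within groups. Relative to the mean of the PBS mice, the median log2 level of the members was 0.28, 0.07, 0.18 and 0.03 in the LLC1 mice and 0.15, -0.04, -0.07 and -0.04 in the PBS mice. The groups thus overlapped through PBS 1-1, which was the highest PBS mouse for 44 of the 60 members. LLC1 1-2 was the highest LLC1 mouse for 46 members and LLC1 2-2 the lowest for 48. The number of members called higher was 22 without PBS 1-1, with all 12 of the calls among them, and the median log2 fold change was then 0.22. The 10 gained were Uqcr10, Uqcrq, Cox5b, Cox6b1, Cox7a2, Cox7b, Cox8a, Cox14, Atp5c1 and Atp5g3, with log2 fold changes of 0.22 to 0.59 without this mouse. The number called was 0 without PBS 1-3, 3 without PBS 2-1 and 12 without PBS 2-5, and 4, 4, 1 and 6 without LLC1 1-2, 1-3, 1-5 and 2-2, respectively. Over these 7 fits the median log2 fold change was 0.09 to 0.17, and 41 to 51 of the 60 members were positive. Without PBS 1-3 they were 0.12 and 48. Over all genes tested, the number called higher moved as well. It was 663 with all mice, 908 without PBS 1-1, 212 without PBS 1-3 and 314 without LLC1 1-5. With libraries scaled by total counts alone, 3 members were called (Cox6a2, Uqcr11 and Atp5d), with 43 positive and 17 negative members. In that fit 225 of all genes tested were called higher. With GC content offsets, 4 of the 12 calls were kept (Sdha, Cox10, Cox4i1 and Cox6a2) and 3 others made (Atp5f1, Atp5g1 and Atp5o), while 55 members were positive and the median log2 fold change was 0.17. Of the 12 called members, Cox6a2 was also called in all 10 alternatives with all mice and in 7 of 8 fits without a mouse, Cox10 and Cox4i1 in 9 and 6, Cox8b in 5 and 2, and the other 8 in 7 to 9 and 1 to 5. The direction turned under at least 1 of these 18 fits for 21 of the 60 members, none of them called, whose log2 fold changes with all mice were between -0.18 and 0.13.

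**Figure D2:**
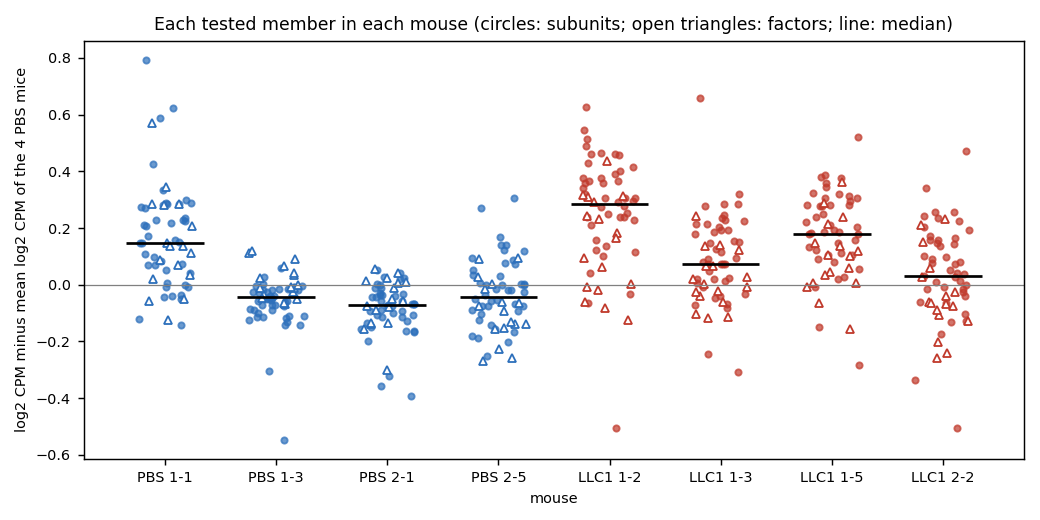
Log2 CPM of each of the 60 tested members in each mouse, minus its mean log2 CPM in the 4 PBS mice (vertical axis); circles are subunits, open triangles are factors and the line is the median. The median is 0.28 in LLC1 1-2 and 0.03 in LLC1 2-2, and PBS 1-1, at 0.15, lies above the other PBS mice.

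Cell type markers moved with the groups as well. The 7 cardiomyocyte markers summed to 92519 to 99292 CPM in LLC1 mice, above every PBS mouse. Most of this sum was the myosin heavy chain gene Myh6, with means of 54332 CPM in LLC1 and 45869 CPM in PBS mice. It was the only 1 of the 7 called higher. The log2 fold change was above 0 for 5 of the 7 and below 0 for Actc1 (-0.05) and Ryr2 (-0.17). The 6 fibroblast markers summed to 838 to 917 CPM in LLC1 mice and 925 to 1308 CPM in PBS mice, with 3 of 6 called lower. Endothelial markers summed to 768 to 897 CPM against 892 to 1174 CPM (2 of 6 called lower), macrophage markers to 216 to 268 against 241 to 360 CPM (2 of 5 called lower), and smooth muscle and pericyte markers to 793 to 855 against 902 to 1068 CPM (0 of 6 called). None of the markers in these 5 lists had 0 counts in every mouse. Erythroid markers summed to 1428 to 5180 CPM in LLC1 mice and 1556 to 3097 CPM in PBS mice, with 0 of 5 called by the edgeR test. In RNA of whole ventricle, fewer cells of a type and less RNA per cell cannot be told apart, and the part of cell composition in the levels of the members was not tested.

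Before the single genes, the start regions of the members give a view of what they share in sequence. Promoter windows of 300 bases, from 250 before to 50 after a gene's start, were found in RefSeq (GRCm38, the build also called mm10) for 49 of the 62 members, as 54 windows. Sdhc, Cyc1, Uqcrb, Uqcrc2, Uqcrq, Cox17, Cox18, Cox6c, Cox4i1, Cox4i2, Cox6a2, Cox8c and Atp5a1 were not matched in the promoter table used here. The letters of a site for nuclear respiratory factor 1 (NRF1), GCGCA and GCGC with any 1 base between them, on either strand, were in 20.4% of the member windows and in 4.60% of all 32851 windows. The core of sites for ETS factors, CCGGAAG, was in 37.0% of member windows against 8.86% of all, and the YY1 letters AANATGGCG were in 13.0% against 2.38%. The SP1 letters GGGCGG were in 46.3% against 35.7%, the letters TNAAGGTCA for the estrogen-related receptors in 3.70% against 1.28%, the MEF2 letters CTA and TAG with any 4 bases between them in 1.85% against 3.69%, and the E-box CANNTG, the letters bound by MyoD and related muscle factors among others, in 64.8% against 72.3%. Each motif was counted once per window, and matches of different motifs may share bases. These are matches of letters in a window and do not show a bound site, and the windows of all genes include genes silent in the heart.

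Complex II has 4 subunits, all made from nuclear genes, and 2 of the 4 were higher in LLC1 mice. Both were subunits of the catalytic head that faces the matrix: Sdha (ENSMUSG00000021577, chromosome 13, 74322254 to 74350280 in mm10) encodes the flavoprotein that oxidizes succinate, and Sdhb (ENSMUSG00000009863, chromosome 4, 140961203 to 140979193) the iron-sulfur subunit that takes up its electrons. Sdha had 1841, 1849, 1915 and 1744 CPM in the LLC1 mice and 1682, 1484, 1607 and 1481 CPM in the PBS mice. The groups did not overlap, though PBS 1-1 and LLC1 2-2 were close. Means were 1837 ± 70.6 CPM in LLC1 and 1564 ± 98.3 CPM in PBS mice (SD, n = 4 each), and the log2 fold change was 0.23 with a standard error (SE) of 0.07 (edgeR FDR = 0.0498). The call was lost with a covariate taken from the replicate code, its number before the hyphen (edgeR FDR = 0.0602) and with at least 10 counts required in every mouse (edgeR FDR = 0.0511). Sdhb had 1122, 979, 1064 and 946 CPM in the LLC1 mice and 881, 847, 839 and 859 CPM in the PBS mice. The PBS mice were within a narrow range, and every LLC1 mouse was above it. Its log2 fold change was 0.26 with an SE of 0.07 (edgeR FDR = 0.0338). Sdha was also the complex II subunit with the highest mean level per kilobase in PBS mice (403 ± 25.3 CPM per kilobase, SD, n = 4). Sdhb was next at 382 ± 8.07, and they did not differ beyond this spread. The Sdha promoter window on mm10, chr13:74350191-74350490 on the minus strand, is shown because it holds 3 matches to the NRF1 letters, in capitals.
Sdha: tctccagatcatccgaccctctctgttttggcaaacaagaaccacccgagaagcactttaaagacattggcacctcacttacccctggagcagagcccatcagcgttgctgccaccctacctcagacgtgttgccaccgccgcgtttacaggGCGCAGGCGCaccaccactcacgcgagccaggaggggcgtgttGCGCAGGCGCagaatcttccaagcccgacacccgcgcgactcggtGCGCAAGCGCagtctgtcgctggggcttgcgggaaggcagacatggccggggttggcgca

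The membrane anchor subunits Sdhc and Sdhd, which hold the head to the inner membrane and bind ubiquinone, did not pass the test. Sdhc was between 427 and 451 CPM in LLC1 mice and between 380 and 425 CPM in PBS mice, with a log2 fold change of 0.13 (edgeR FDR = 0.193), and Sdhd had a log2 fold change of 0.06 (edgeR FDR = 0.594). Of the assembly factors, Sdhaf2, which helps to attach the flavin to Sdha, had 56.4, 51.8, 53.7 and 50.2 CPM in the LLC1 mice and 55.3, 58.4, 54.4 and 48.5 CPM in the PBS mice. Its groups overlapped over nearly their whole range, and its log2 fold change of -0.03 with an SE of 0.07 (edgeR FDR = 0.836) was the lowest of the complex. Sdhaf1, which assists in delivering iron-sulfur clusters to Sdhb, lay between 10.4 and 15.9 CPM in all mice, and 69.6% of its exons overlap a gene on the other strand, so its counts are uncertain. The difference between head and anchor subunits was not tested.

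In complex III, 3 of 12 members were higher in LLC1 mice, all of them subunits. Cyc1 (ENSMUSG00000022551, chromosome 15, 76343523 to 76345934) encodes cytochrome c1, which hands electrons to cytochrome c, and was the subunit with the highest PBS level per kilobase (677 CPM per kilobase). It had 988, 937, 1009 and 929 CPM in the LLC1 mice and 743, 805, 809 and 879 CPM in the PBS mice. Here PBS 1-1 was the lowest mouse, unlike for most members. LLC1 was higher by a log2 fold change of 0.26 with an SE of 0.07 (edgeR FDR = 0.0372), and the call was lost with GC content offsets (0.16, edgeR FDR = 0.183), with total counts as library size (edgeR FDR = 0.177) and with gene length offsets (edgeR FDR = 0.0842). Uqcrc1 (ENSMUSG00000025651, chromosome 9, 108936633 to 108949623) encodes a core protein on the matrix side of the complex. Its level was 1646, 1620, 1589 and 1634 CPM in the LLC1 mice and 1363, 1379, 1364 and 1484 CPM in the PBS mice. Both groups were tight except for PBS 2-5, and the log2 fold change was 0.22 with an SE of 0.06 (edgeR FDR = 0.0437). In the main fit the log2 fold change was greatest for Uqcr11 (ENSMUSG00000020163, chromosome 10, 80402997 to 80406830), a small accessory subunit. That of Uqcrq was close to it (0.35) and was the greater without PBS 1-1. Uqcr11 had 502, 418, 446 and 405 CPM in the LLC1 mice and 345, 327, 326 and 379 CPM in the PBS mice. The LLC1 mean was 442 ± 43.0 CPM and the PBS mean 344 ± 24.8 CPM (SD, n = 4 each). The log2 fold change was 0.36 with an SE of 0.08 (edgeR FDR = 0.0180), or 0.23 with gene length offsets (edgeR FDR = 0.0559). The promoter windows of Uqcrc1 (chr9:108936398-108936697, plus strand) and Uqcr11 (chr10:80406772-80407071, minus strand) are shown to set side by side 2 genes that were called together and whose windows hold different letters. In capitals are 2 NRF1 matches and 5 E-boxes in Uqcrc1, and 1 ETS match and 1 E-box in Uqcr11.
Uqcrc1: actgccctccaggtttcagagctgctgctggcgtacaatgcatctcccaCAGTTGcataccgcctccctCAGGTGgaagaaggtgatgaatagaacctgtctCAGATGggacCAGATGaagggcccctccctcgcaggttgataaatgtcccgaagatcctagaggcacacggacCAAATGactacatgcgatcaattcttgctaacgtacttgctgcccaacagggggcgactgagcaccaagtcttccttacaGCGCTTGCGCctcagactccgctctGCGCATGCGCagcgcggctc
Uqcr11: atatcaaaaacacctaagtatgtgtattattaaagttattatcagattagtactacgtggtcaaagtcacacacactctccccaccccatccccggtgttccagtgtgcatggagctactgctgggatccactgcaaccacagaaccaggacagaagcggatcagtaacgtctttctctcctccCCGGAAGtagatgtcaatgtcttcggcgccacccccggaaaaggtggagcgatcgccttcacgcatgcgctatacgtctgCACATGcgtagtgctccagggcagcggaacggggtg

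The other small accessory subunits of complex III did not pass the test. Uqcr10 had a log2 fold change of 0.28 without overlap of the groups (edgeR FDR = 0.0645), and without PBS 1-1 it was called at 0.33 (edgeR FDR = 0.0214). With gene length offsets Uqcr10 was at 0.14 and Uqcc3, an assembly factor, at 0.11. Uqcrq had 429, 358, 439 and 387 CPM in the LLC1 mice and 459, 277, 233 and 294 CPM in the PBS mice. Its LLC1 values were all above those of PBS 1-3, 2-1 and 2-5, and PBS 1-1 was above every LLC1 mouse. The overall log2 fold change of 0.35 had an SE of 0.17 (edgeR FDR = 0.208). Without PBS 1-1 it was 0.59 (edgeR FDR = 0.00186). Uqcrb was the member of the complex with the lowest log2 fold change. It had 397, 344, 359 and 320 CPM in the LLC1 mice and 422, 356, 345 and 327 CPM in the PBS mice, and the log2 fold change was -0.03 with an SE of 0.09 (edgeR FDR = 0.866). It was above 0 with GC content offsets (0.11), without PBS 1-1 (0.05) and without LLC1 2-2 (0.01). It has processed pseudogenes of at least 97% identity, so some of its reads could be placed elsewhere. The Rieske iron-sulfur protein gene Uqcrfs1, the core protein gene Uqcrc2 and the hinge protein gene Uqcrh had log2 fold changes of 0.02, -0.01 and 0.13, and none passed the test. Of the 3 assembly factors for cytochrome b, none passed either: Uqcc3 had a log2 fold change of 0.22 (edgeR FDR = 0.0959) without overlap, and Uqcc1 and Uqcc2 were at -0.02 and 0.06.

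**Figure D3:**
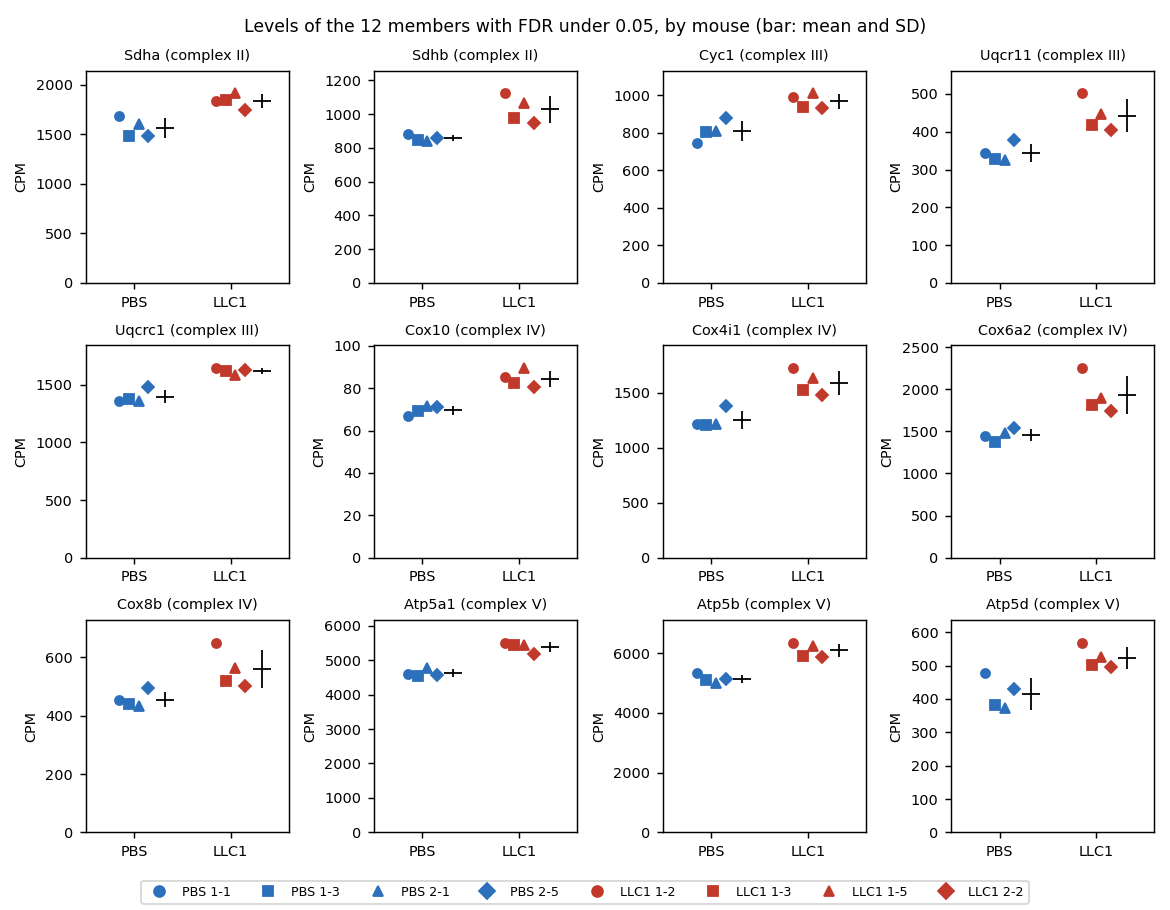
CPM of the 12 members with an FDR under 0.05 in each mouse (vertical axes from 0), with the mean and SD of each group of 4 mice as a cross and bar beside the points. No LLC1 mouse lies below a PBS mouse in any of the 12 panels, and the means differ by fold changes of 1.16 for Uqcrc1 to 1.32 for Cox6a2.

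Complex IV held the widest range of changes, from -0.28 to 0.40 on the log2 scale, and 4 of its 25 tested members were higher in LLC1 mice. Of these, 3 were subunits that exist as tissue isoforms. Cox6a2 (ENSMUSG00000030785, chromosome 7, 128205436 to 128206366) encodes the heart and skeletal muscle isoform of subunit VIa. In the main fit it had the largest log2 fold change of all 60 members tested, but not without PBS 1-1 or with gene length offsets. Its level was 2253, 1820, 1895 and 1742 CPM in the LLC1 mice and 1449, 1369, 1478 and 1538 CPM in the PBS mice. Every LLC1 mouse was well above every PBS mouse, and LLC1 1-2 was the highest. The LLC1 mean was 1927 ± 226 CPM and the PBS mean 1459 ± 70.1 CPM (SD, n = 4 each), and LLC1 was higher by a log2 fold change of 0.40 with an SE of 0.08 (edgeR FDR = 0.0143). Of its exons, 10.3% overlap Itgad on the other strand. Cox8b (ENSMUSG00000025488, chromosome 7, 140898943 to 140900446) encodes the heart and skeletal muscle isoform of subunit VIII and had 650, 520, 563 and 503 CPM in the LLC1 mice and 455, 440, 434 and 493 CPM in the PBS mice. LLC1 2-2 and PBS 2-5 nearly met, and the log2 fold change was 0.30 with an SE of 0.08 (edgeR FDR = 0.0495). With gene length offsets it was 0.13 (edgeR FDR = 0.247), and the call was also lost with the covariate from the replicate code (edgeR FDR = 0.0633). Its promoter window (chr7:140900397-140900696, minus strand) is shown because it holds 2 E-boxes, in capitals, and none of the NRF1, ETS and SP1 letters.
Cox8b: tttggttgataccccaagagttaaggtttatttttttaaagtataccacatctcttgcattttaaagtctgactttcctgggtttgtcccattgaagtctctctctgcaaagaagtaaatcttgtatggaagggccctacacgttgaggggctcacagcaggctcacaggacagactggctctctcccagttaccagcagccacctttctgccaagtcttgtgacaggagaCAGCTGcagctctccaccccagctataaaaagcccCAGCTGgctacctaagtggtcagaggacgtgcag

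Cox4i1 (ENSMUSG00000031818, chromosome 8, 120668222 to 120674207) encodes the widely expressed isoform of subunit IV, the largest of the nuclear subunits. It had 1723, 1521, 1634 and 1477 CPM in the LLC1 mice and 1215, 1205, 1212 and 1376 CPM in the PBS mice. PBS 2-5 stood above the other 3 PBS mice and below every LLC1 mouse. The LLC1 mean was 1589 ± 111 CPM and the PBS mean 1252 ± 82.9 CPM (SD, n = 4 each). Of the exons of Cox4i1, 9.94% overlap Emc8 on the other strand. The log2 fold change was 0.34 with an SE of 0.07 (edgeR FDR = 0.0157). Its partner Cox4i2, the isoform best known from lung, was low in the ventricle, with 7.48, 6.45, 6.29 and 5.38 CPM in the LLC1 mice and 7.38, 7.01, 7.00 and 9.44 CPM in the PBS mice. All but LLC1 1-2 were below every PBS mouse, and the log2 fold change of -0.28 (SE 0.14) did not pass the test (edgeR FDR = 0.238). Within each mouse, the ratio of Cox4i1 to Cox4i2 per kilobase does not depend on how the libraries are scaled. It was 117, 120, 132 and 139 in the LLC1 mice and 83.7, 87.4, 88.0 and 74.1 in the PBS mice, without overlap. On the log2 scale the ratio differed by 0.61 (SE 0.08; exact permutation p = 0.0286, 2-sided, the smallest that 4 against 4 mice allow), which became 0.0714 after adjustment over the 5 isoform pairs compared by this exact test. Cox4i1 still made up 98.7% to 99.3% of the pair in every mouse.

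For subunit VIIa, the muscle isoform was lower on average in LLC1 mice. Cox7a1 (ENSMUSG00000074218, chromosome 7, 30184171 to 30186028) encodes this isoform and was, over all 4 PBS mice, the complex IV subunit with the highest level per kilobase (2257 ± 330 CPM per kilobase, SD, n = 4), next to Cox6a2 (2217 ± 106), from which it did not differ beyond this spread. Without PBS 1-1 the order turned, with 2101 CPM per kilobase for Cox7a1 and 2221 for Cox6a2. It had 779, 659, 736 and 647 CPM in the LLC1 mice and 992, 793, 792 and 710 CPM in the PBS mice. The groups overlapped, since LLC1 1-2 and 1-5 were above PBS 2-5, and the log2 fold change was -0.22 with an SE of 0.10 (edgeR FDR = 0.195). With gene length offsets it was called lower (-0.38, edgeR FDR = 0.0335). Cox7a2, the isoform found in most tissues, had 356, 294, 321 and 284 CPM in the LLC1 mice and 321, 245, 236 and 264 CPM in the PBS mice. Its log2 fold change was 0.24 with an SE of 0.10 (edgeR FDR = 0.169), so that neither gene passed with all mice. With gene length offsets Cox7a2 was at 0.12 (edgeR FDR = 0.494). Without PBS 1-1, Cox7a2 was called higher (log2 fold change 0.34, FDR = 0.0187, edgeR), and the log2 fold change of Cox7a1 was -0.12 (edgeR FDR = 0.355). The ratio of Cox7a1 to Cox7a2 per kilobase was 4.53, 4.64, 4.75 and 4.71 in the LLC1 mice and 6.41, 6.69, 6.94 and 5.56 in the PBS mice. The 4 LLC1 mice lay within a narrow band below every PBS mouse, PBS 1-1 included. The log2 ratio was 2.22 ± 0.03 (SD, n = 4) against 2.67 ± 0.14 (SD, n = 4), a difference of -0.45 (SE 0.07; exact permutation p = 0.0286, 0.0714 after adjustment over the 5 pairs), and it was between -0.52 and -0.41 when any mouse was left out. The muscle isoform made up 81.9% to 82.6% of the pair in LLC1 mice and 84.8% to 87.4% in PBS mice. The promoter windows of the pair (Cox7a1, chr7:30183921-30184220, plus strand, and Cox7a2, chr9:79759804-79760103, minus strand) are shown because the ratio of the genes did not overlap between groups. Each holds 1 E-box, in capitals, and neither holds NRF1 or ETS letters. Cox7a2 also holds 1 match to the SP1 letters, not in capitals, and Cox7a1 holds none.
Cox7a1: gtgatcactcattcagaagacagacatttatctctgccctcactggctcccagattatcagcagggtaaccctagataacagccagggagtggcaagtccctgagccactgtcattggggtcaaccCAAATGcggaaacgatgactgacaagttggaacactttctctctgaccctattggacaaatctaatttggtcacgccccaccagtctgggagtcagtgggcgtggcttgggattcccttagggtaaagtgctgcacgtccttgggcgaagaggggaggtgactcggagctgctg
Cox7a2: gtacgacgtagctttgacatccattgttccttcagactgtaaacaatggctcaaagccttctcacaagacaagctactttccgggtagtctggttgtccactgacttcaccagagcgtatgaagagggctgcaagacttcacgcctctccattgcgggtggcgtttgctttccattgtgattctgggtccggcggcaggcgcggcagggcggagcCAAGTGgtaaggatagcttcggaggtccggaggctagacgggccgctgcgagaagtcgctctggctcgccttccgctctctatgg

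**Figure D4:**
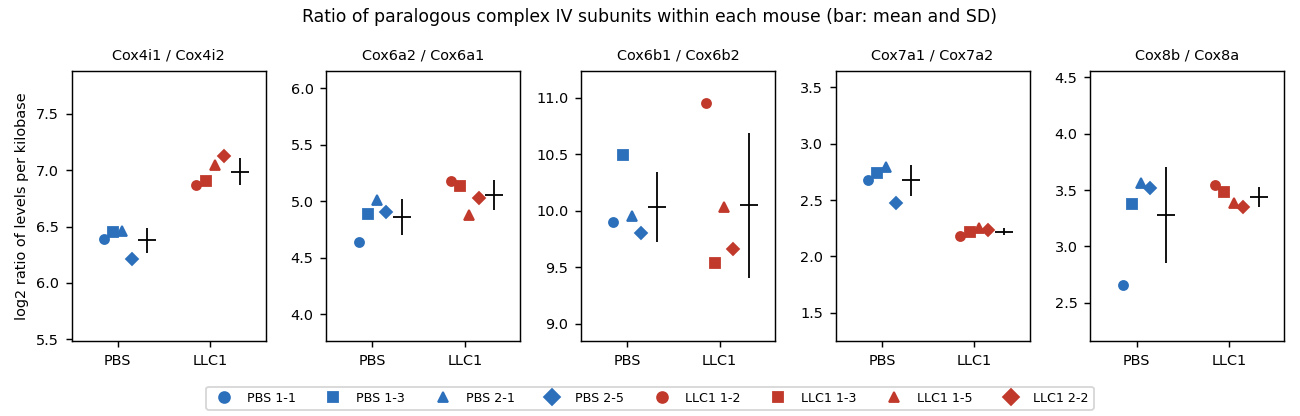
Log2 ratio of paralogous complex IV subunit genes within each mouse, from CPM per kilobase (vertical axes, each spanning 2.4 log2 units), with the mean and SD of each group of 4 mice. The groups do not overlap for Cox4i1 over Cox4i2 (difference 0.61) and Cox7a1 over Cox7a2 (difference -0.45), and they overlap for the other 3 pairs.

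For the other 3 isoform pairs the groups overlapped. Cox6a1, the widely expressed partner of Cox6a2, had 66.2, 55.4, 68.7 and 57.0 CPM in the LLC1 mice and 62.2, 49.5, 48.8 and 54.7 CPM in the PBS mice, with a log2 fold change of 0.20 (edgeR FDR = 0.207), or 0.08 with gene length offsets (edgeR FDR = 0.647). The log2 ratio of Cox6a2 to Cox6a1 differed by 0.19 (SE 0.10, exact permutation p = 0.143, adjusted 0.238), and by less without PBS 1-1. The muscle isoform made up 96.1% to 97.3% of the pair per kilobase. Cox8a, the partner of Cox8b, had 83.9, 70.2, 81.3 and 74.3 CPM in the LLC1 mice and 109, 64.0, 55.2 and 64.8 CPM in the PBS mice. PBS 1-1 was again above every LLC1 mouse while the other 3 PBS mice were below them, and the log2 fold change was 0.09 with an SE of 0.17 (edgeR FDR = 0.787), or 0.34 without PBS 1-1 (edgeR FDR = 0.0184). The log2 ratio of Cox8b to Cox8a differed by 0.16 (SE 0.22; exact permutation p = 0.771, adjusted 0.964), and by -0.05 without PBS 1-1. Cox6b1 had 719, 600, 654 and 577 CPM in the LLC1 mice and 597, 507, 505 and 552 CPM in the PBS mice, a log2 fold change of 0.24 that did not pass the test (edgeR FDR = 0.0983). Without PBS 1-1 it was called at 0.29 (edgeR FDR = 0.0314), and with gene length offsets it was 0.09 (edgeR FDR = 0.511). Its testis isoform Cox6b2 was found at 0.771 to 1.78 CPM over all mice, and the log2 ratio of the pair differed by 0.01 (SE 0.36, exact permutation p = 0.971). Without LLC1 1-2 this difference was below 0. The other testis isoforms were at the floor: Cox7b2 was at 0 to 0.177 CPM and Cox8c had 0 counts in every mouse, and neither was tested.

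The 5 remaining complex IV subunits, of which only Cox7b has an isoform partner in the list (the testis gene Cox7b2), were not called with all mice. Cox5a, Cox5b, Cox6c, Cox7b and Cox7c had log2 fold changes of -0.04, 0.00, 0.13, 0.17 and 0.15 and a median of 0.13. With GC content offsets Cox7b and Cox7c were at 0.29 and 0.30, and with gene length offsets at 0.11 and 0.08, and neither was called. The values of Cox5a and Cox5b turned on a single library. Cox5a was at 0.13 without PBS 1-1 (edgeR FDR = 0.293) and at 0.10 with GC content offsets. Cox5b had 481, 409, 434 and 404 CPM in the LLC1 mice and 707, 331, 326 and 363 CPM in the PBS mice. All LLC1 mice were above 3 PBS mice and below PBS 1-1, and the SE of the log2 fold change was 0.21. Without PBS 1-1 the log2 fold change of Cox5b was 0.35 (edgeR FDR = 0.0104), and Cox7b was then called at 0.28 (edgeR FDR = 0.0387). Cox5b also has a near-identical gene, Gm11273, with 99.2% identity over 390 bases and 15.8% as many counts, so its counts are uncertain.

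Of the 10 complex IV assembly and supercomplex factors, 1 was called. Cox10 (ENSMUSG00000042148, chromosome 11, 63962627 to 64079468) encodes the farnesyltransferase that makes heme O, the step before heme A. It had 85.3, 82.4, 89.5 and 80.7 CPM in the LLC1 mice and 67.0, 69.1, 71.7 and 71.0 CPM in the PBS mice. The gap between the groups was wider than the range of either group. The LLC1 mean was 84.4 ± 3.87 CPM and the PBS mean 69.7 ± 2.12 CPM (SD, n = 4 each). The log2 fold change was 0.28 with an SE of 0.06 (edgeR FDR = 0.0164), and PBS 1-1 was the lowest PBS mouse. Cox15, which carries out the following step from heme O to heme A, had a log2 fold change of -0.02 with an SE of 0.06 (edgeR FDR = 0.875), with 50.5 to 53.0 CPM over all 8 mice. The copper delivery factors Cox11, Cox17 and Cox19 had log2 fold changes of -0.18, 0.12 and -0.03, and Cox11 was at 0.04 without PBS 1-1. The factors of early assembly and membrane insertion, Cox14, Cox16, Cox18 and Cox20, were at 0.25, 0.02, 0.02 and -0.07, and the supercomplex factor Cox7a2l was at 0.07. None of these 8 passed the test with all mice, and Cox14 passed without PBS 1-1 (0.35, edgeR FDR = 0.0127) and was at 0.13 with gene length offsets. Counts of Cox11, Cox16, Cox17 and Cox20 are uncertain. Of the exons of Cox11, Cox16 and Cox20, 48.3%, 56.8% and 91.1% overlap another gene. Cox17 is identical over 257 bases to Gm21987, which held 118% as many counts.

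The 17 members of complex V, 15 of them subunit genes, had log2 fold changes above 0, Atp5s only just, with a median of 0.16. Of all genes tested 47.9% were above 0, and of the 2371 genes at the members' level 63.5%. In complex V 3 members were called higher (17.6%), where 4.12% of all genes tested and 11.6% of the 2371 genes were. With total counts as library size 15 of the 17 were above 0, with gene length offsets 14, with the covariate from the replicate code and with GC content offsets 16 each, and without single mice 14 to 17. The 3 calls were among the 5 subunits of the F1 head and central stalk, the part that carries the catalytic sites. Under other settings with all mice, calls were also made for the c ring and the peripheral stalk, and the difference between these parts was not tested. Atp5a1 (ENSMUSG00000025428) encodes the alpha subunit and had the highest PBS level per kilobase of the complex (1472 ± 37.0 CPM per kilobase, SD, n = 4). Its level was 5502, 5433, 5444 and 5179 CPM in the LLC1 mice and 4589, 4531, 4786 and 4557 CPM in the PBS mice. The groups were well apart, and the log2 fold change was 0.22 with an SE of 0.06 (edgeR FDR = 0.0343). Atp5b (ENSMUSG00000025393, chromosome 10, 128083273 to 128090391) encodes the beta subunit, where ATP is made, and had 6348, 5917, 6228 and 5876 CPM in the LLC1 mice and 5326, 5088, 5016 and 5134 CPM in the PBS mice. The gap between the groups was wider than the spread within either group. The log2 fold change was 0.25 with an SE of 0.06 (edgeR FDR = 0.0269). Atp5d (ENSMUSG00000003072, chromosome 10, 80138632 to 80145818) encodes the delta subunit of the central stalk. In the main fit it had the largest log2 fold change of complex V, but with GC content or gene length offsets Atp5g1 was above it. Atp5d had 568, 502, 525 and 495 CPM in the LLC1 mice and 478, 383, 374 and 429 CPM in the PBS mice. PBS 1-1 came closest to the LLC1 mice, and the log2 fold change was 0.33 with an SE of 0.08 (edgeR FDR = 0.0333). The gamma subunit gene Atp5c1 and the epsilon subunit gene Atp5e had log2 fold changes of 0.14 and 0.19 and did not pass, though Atp5c1 passed without PBS 1-1 (0.25, edgeR FDR = 0.047).

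The c ring of Fo, which turns as protons pass, is encoded by 3 genes whose mature products are identical. Per kilobase, Atp5g3 made up 67.1% to 70.9% of the c ring messages, Atp5g1 18.3% to 22.7% and Atp5g2 9.84% to 10.7%, with overlap of the groups for each. Not divided by length, the shares of their counts were 53.2% to 58.8% for Atp5g3, 34.3% to 40.6% for Atp5g1 and 6.03% to 6.85% for Atp5g2. Atp5g1 had 1239, 1116, 1196 and 1076 CPM in the LLC1 mice and 865, 939, 955 and 1074 CPM in the PBS mice. LLC1 2-2 and PBS 2-5 were nearly equal, PBS 1-1 was the lowest mouse, and the log2 fold change of 0.27 (SE 0.08) lay just outside the threshold (edgeR FDR = 0.0515). A processed pseudogene, Gm10039, is 99.8% identical to it over 411 bases and held 9.34% as many counts, so its counts are uncertain. Atp5g2 had 205, 178, 182 and 171 CPM in the LLC1 mice and 173, 162, 160 and 163 CPM in the PBS mice, with a log2 fold change of 0.16 (edgeR FDR = 0.159), or 0.05 with GC content offsets (edgeR FDR = 0.750). Atp5g3 had 1744, 1562, 1643 and 1491 CPM in the LLC1 mice and 1484, 1395, 1354 and 1408 CPM in the PBS mice, with a log2 fold change of 0.19 (edgeR FDR = 0.102). None of the 3 was called by the main test, though the unadjusted edgeR p was under 0.05 for all 3, for Atp5g2 not with GC content offsets. Atp5g1 was called in 7 of the 10 alternatives with all mice, DESeq2 among them (FDR = 0.0106). Atp5g3 was called by DESeq2 (FDR = 0.0410) and by edgeR without PBS 1-1 (0.22, FDR = 0.04995).

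Peripheral stalk genes, which hold the F1 head still against the rotor, gave 0 calls among 4 by the main test. Atp5o was nearest, with a log2 fold change of 0.27 without overlap (edgeR FDR = 0.0533, DESeq2 FDR = 0.0131). Of its exons, 18.1% overlap Gm15976 on the other strand and 12.3% another entry named Atp5o on the same strand. Atp5h, Atp5f1 and Atp5j were at 0.17, 0.12 and 0.06. With GC content offsets Atp5f1 was called at 0.27 (edgeR FDR = 0.0269). The 3 genes of the membrane part of Fo, Atp5l, Atp5j2 and Atp5k, were at 0.13, 0.08 and 0.04, and none passed. Of the 2 other genes named for ATP synthase, Atp5sl was at 0.13 and Atp5s at 0.01, the lowest of complex V. Atp5s had 22.2, 20.7, 18.9 and 18.1 CPM in the LLC1 mice and 24.1, 18.9, 19.8 and 16.9 CPM in the PBS mice, and its groups overlapped fully (SE 0.11, edgeR FDR = 0.982). It was below 0 with total counts as library size (-0.04), with the covariate from the replicate code (-0.05) and with gene length offsets (-0.02). In RefSeq Atp5sl and Atp5s are now called Dmac2 and Dmac2l. They were counted in complex V by their older symbols alone and are not subunits of it.

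**Figure D5:**
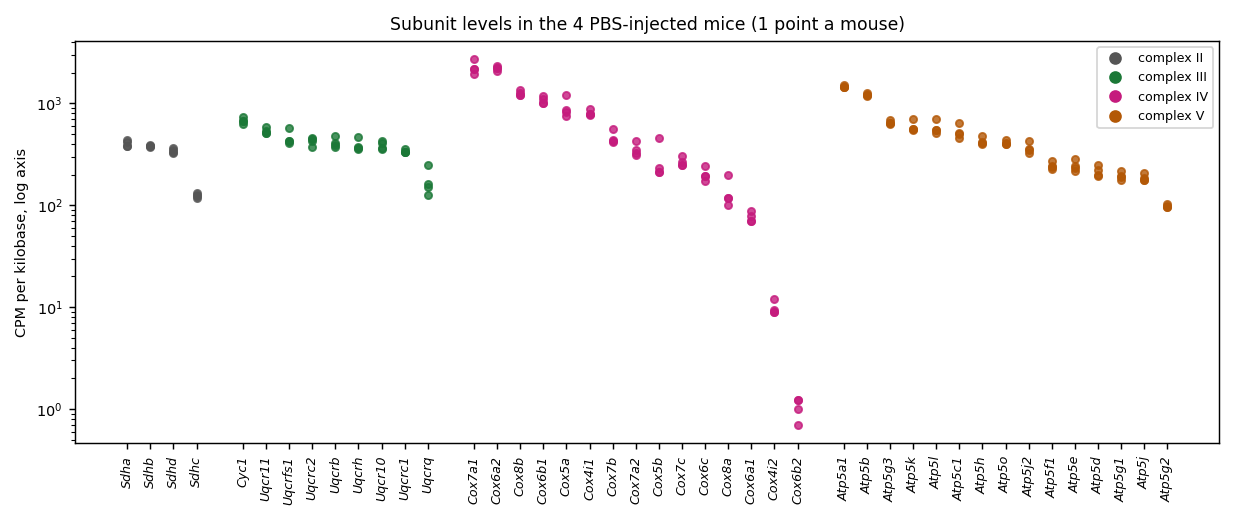
Level of each tested subunit gene in the 4 PBS mice in CPM per kilobase of gene length (vertical log axis), 1 point per mouse, by complex and in falling order of the mean. Cox7a1 and Cox6a2 are highest at means of 2257 and 2217, in the other order without PBS 1-1, and the lung isoform Cox4i2 and the testis isoform Cox6b2 are lowest, at 9.78 and 1.04.

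Levels per kilobase in the PBS mice differed widely among the subunit genes. Complex IV held both ends, with the muscle isoforms Cox7a1, Cox6a2 and Cox8b (1258 ± 74.1 CPM per kilobase) near the top and the lung and testis isoforms at the bottom. The highest in the other complexes were Atp5a1, followed by Atp5b at 1213 ± 31.3, then Cyc1 at 677 ± 46.5 and Sdha at 403 ± 25.3 CPM per kilobase. Sdhb was within this spread of Sdha. Gene lengths are those of the table, which are long for some genes with short main transcripts, such as 4912 bases for Atp5g1, and this lowers their level per kilobase.

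Other genes of the pathway, come from a list of 45 that the symbols above do not reach. Of the 44 tested, 1 was called higher (2.27%, where 4.12% of all genes tested were) and 0 lower, the median log2 fold change was 0.03, and 26 were above 0. By unadjusted p under 0.05 in the edgeR test, 6 were higher and 1 lower, where 2002 and 2101 of the 16111 genes tested were. The call was Coq7, a hydroxylase of ubiquinone synthesis, which had 93.5, 83.8, 90.4 and 78.8 CPM in the LLC1 mice and 71.2, 71.2, 66.5 and 71.1 CPM in the PBS mice. All LLC1 mice were above all PBS mice, and the log2 fold change was 0.31 with an SE of 0.07 (edgeR FDR = 0.0179). Counts of calls were 1 of 13 for ubiquinone synthesis, 0 of 19 for assembly and expression factors of complex IV, 0 of 3 for those of complex III, 0 of 4 for complex V factors and the ATPase inhibitor, 0 of 3 for subunits with other symbols and 0 of 2 for cytochrome c and its heme lyase. For comparison, 7 of 45 complex I genes with Nduf symbols were called higher (15.6%), with a median log2 fold change of 0.17, and 5 of 77 mitochondrial ribosomal protein genes (6.49%, beside the same 4.12%), with a median of 0.04. Differences between these groups of genes were not tested.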

How the data were processed

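The authors prepared TruSeq libraries of total RNA, sequenced 150-base paired-end reads, and deposited raw read counts for every gene and mouse as whole numbers. The submitters' processing notes name CASAVA, STAR, featureCounts and build mm10, without versions. The gene annotation and the strand setting are not given in the sources used here, so reads of overlapping genes could not be told apart. The depth of 12480706 to 19747596 counts per mouse limits the precision of low members.

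Groups came from the stated treatment. Counts were tested with edgeR 4.0.16 in R 4.3.3 (filterByExpr, TMM, estimateDisp, glmQLFit, glmQLFTest; 16111 of 43346 genes), with Benjamini-Hochberg adjustment and an FDR under 0.05 as a call. Errors beside CPM are SDs over 4 mice, and the p-values measure the spread between these mice. Isoform ratios were compared by an exact permutation test over 70 arrangements, 2-sided, and adjusted over 5 pairs. Alternatives used DESeq2 1.42.0, limma-voom (limma 3.58.1), other scalings, filters, a covariate, and gene length and GC offsets (loess span 0.3), and left out each mouse. The fit was tested on simulated data.

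The rule for named genes took every called member, the tissue isoform sets, the extreme member in each direction and the highest subunit per kilobase of each complex, untested members, and called genes of the pathway list. Members outside it that are given with values by mouse (Uqcrq and Cox5b) were chosen after their values were seen. The members and lists were chosen with earlier results of these data known. Overlaps were taken from GENCODE M21, and similar transcripts (97% identity or more over a minimum of 150 bases) from BLAST 2.17.0. Tables were made in Python 3.11.15 with pandas 2.3.3 and scipy 1.17.1, and figures with matplotlib 3.10.9.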

Additional observations from a re-analysis of the deposited data

Results flagged for a closer look

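In 7 of 130 sets of 4 mice (5.38%), the highest mouse stood apart from the other 3 by more than Dixon's 95% limit, and chance gives about 1 in 20. All 7 were PBS mice. In PBS 1-1 these were the Rieske protein gene Uqcrfs1 at 783 CPM, Uqcrh at 583 CPM, Cox5b at 707 CPM and the Fo membrane subunit gene Atp5k at 428 CPM. In PBS 2-5 they were Uqcrc1 at 1484 CPM, Cox4i1 at 1376 CPM and Cox4i2 at 9.44 CPM. Without PBS 2-5, Uqcrc1 and Cox4i1 were still called higher in LLC1 mice, with log2 fold changes of 0.24 and 0.39 (FDR = 0.0299 and 0.00966, edgeR), and Cox4i2 was at -0.16. Without PBS 1-1, Uqcrfs1 was at 0.14, Uqcrh at 0.23 and Atp5k at 0.13, and none of these 3 was called by the edgeR test, while Cox5b was called higher.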

How the results depend on the processing

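Against 12 members higher in LLC1 mice, total counts as library size gave 3 (0 of complex II and 1 each of complexes III, IV and V), and GC content offsets gave 7 (1 of complex II and 0 of complex III), of which 4 were among the 12. With no filter 11 of 14 calls, and with gene length offsets 9 of 11, were among the 12. Against 2 calls in complex II, at least 10 counts in every mouse and the covariate from the replicate code gave 1 each. Gene length offsets gave 1 of complex III and 5 of complex V, and 1 member lower (Cox7a1). In complex V, 5 were called with no filter, with limma-voom and with robust empirical Bayes, and 6 with DESeq2. Leaving out each mouse gave 0 to 22 members higher, 0 to 2 in complex II, 0 to 5 in complex III, 0 to 10 in complex IV and 0 to 5 in complex V. Over all genes tested it gave 212 to 908 called higher, where all mice gave 663. The cause of these differences was not tested, although fits that leave out a mouse hold fewer samples. No called member changed direction under any alternative. The isoform ratio differences of Cox4i1 over Cox4i2 and Cox7a1 over Cox7a2 kept their direction under all alternatives run, with adjusted exact permutation p from 0.0714 to 0.143. These alternatives could hardly turn the direction. Groups that do not overlap cannot change order when a mouse is left out, and gene length cancels from the difference. No paired analysis was possible because the groups shared only 1 replicate code, 1-3, on different animals.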
